A study of Mus musculus with 12 samples.

Results

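A set of 10 genes of Hedgehog signalling were followed through the anterior hard palate, the front of the bony roof of the mouth, of mouse embryos. They were picked by name as a ligand (Shh), a receptor (Ptch1), a secreted-signal trap (Hhip), a transcriptional effector (Gli1), the co-receptors Boc, Cdon and Gas1, and the palatal Fox genes Foxf1, Foxf2 and Foxl1. The list was chosen with earlier results of these data known, so counts of its calls beside all genes are no test of it. All 10 of these genes were found among the 24391 genes counted in every library, and all 10 were tested in each comparison. RNA sequencing covered 12 samples in 4 groups of 3, all on the C57BL/6 strain. They were Shox2Cre;R26RFgf8 mutants and wild-type controls at embryonic day 14.5 (E14.5), and the same genotypes at embryonic day 16.5 (E16.5). In the mutants, Cre made under Shox2, a gene of the anterior palate mesenchyme, is meant to switch on an Fgf8 transgene at the R26 locus, so the transgene should be on only in cells with a history of Shox2 expression. The labels give the controls as wild type, with no mention of Cre or of the unrecombined transgene. Whether embryos were pooled is not stated, so the p-values reflect variation among samples that may or may not be separate embryos. Because the tissue was taken whole, fewer cells of a type and less RNA per cell cannot be told apart in any value given here.

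In the palate, Shh is made by the oral epithelium, first broadly and later in the transverse ridges called rugae, and it acts on the mesenchyme beneath. Hedgehog ligands bind the receptor Ptch1, which then stops holding back the membrane protein Smo, and GLI transcription factors switch on target genes. Ptch1, Hhip and Gli1 are themselves targets in most tissues, so their RNA is commonly read as pathway output. Foxf1, Foxf2 and Foxl1 are forkhead transcription factors of mesenchyme next to Shh-producing epithelium, and in the mouse palate Foxf1 and Foxf2 are known to hold back Fgf18, a growth factor that lowers Shh.

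Levels are given as CPM, counts scaled to a common library total with TMM factors, and a gene was called when edgeR's quasi-likelihood test gave a Benjamini-Hochberg adjusted p under 0.05 over all genes tested. Total counts ran from 76417891 to 125996587 per library. Fgf8 was at 10.8 ± 0.275 CPM in E14.5 mutants against 0.316 ± 0.0938 CPM in E14.5 controls, and at 16.1 ± 1.93 CPM in E16.5 mutants against 0.383 ± 0.110 CPM in E16.5 controls (SD, n = 3 each), so the labels held in all 12 libraries. None of the 12 markers of palate mesenchyme or the 14 of oral epithelium was at 0 in any library. E16.5 mutant libraries 1 and 3 stood apart: 8 retina markers summed to 147, 13.8 and 85.8 CPM in E16.5 mutant libraries 1, 2 and 3, against 29.8 to 33.6 CPM in E16.5 controls. Xist, which is made in female cells, was at 486 ± 41.0 CPM in E14.5 mutants and 780.0 ± 76.9 CPM in E14.5 controls, and at 899 ± 13.4 CPM in E16.5 mutants and 404 ± 71.4 CPM in E16.5 controls. The part of retina and sex in the results was not tested, but values without E16.5 mutant libraries 1 and 3 are given for E16.5 results. That fit leaves 1 E16.5 mutant library. A call kept or lost in it therefore rests on no spread among E16.5 mutants, and its effect sizes are those of a single library. Neuron markers, 8 in all and none at 0, summed to 318, 95.8 and 218 CPM in E16.5 mutant libraries 1, 2 and 3, against 81.3 to 94.8 CPM in E16.5 controls.

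**Figure D1:**
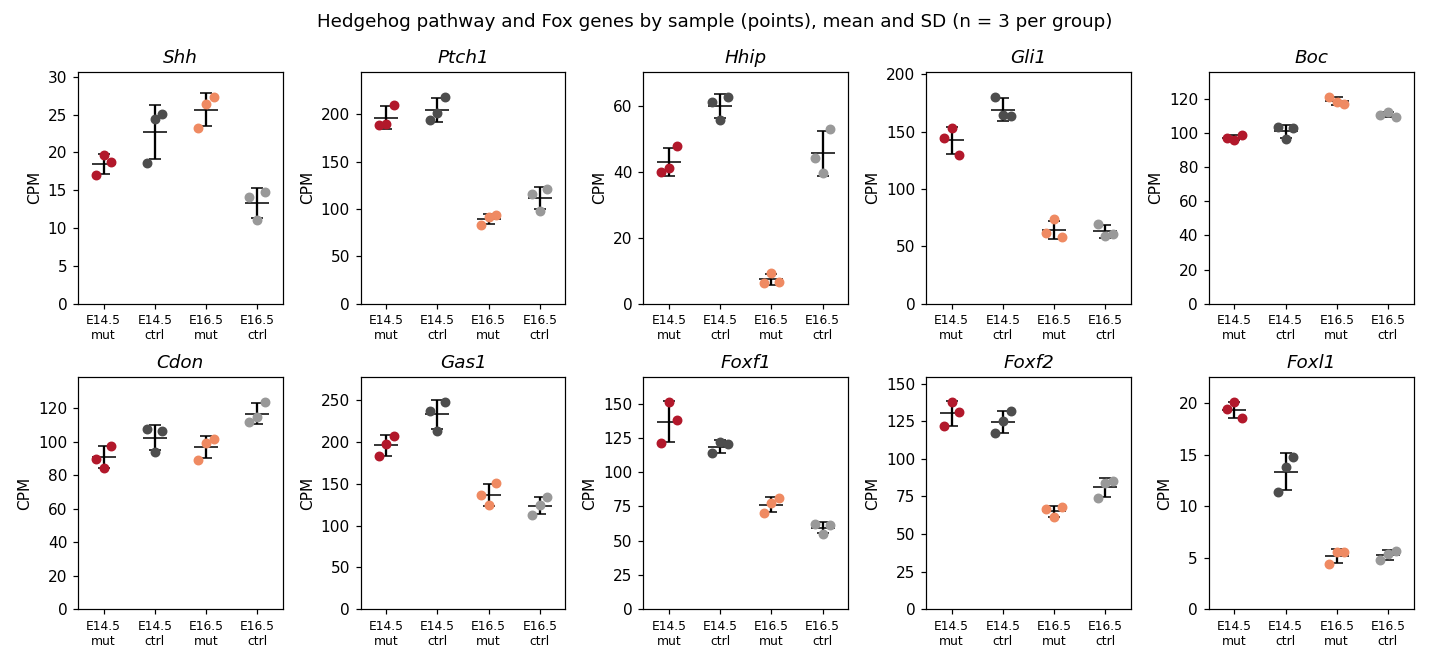
CPM of each of the 10 genes (y axis, linear from 0) in the 4 groups (x axis, mutant left of control at each age). Points are samples, and the bar marks the mean with its SD (n = 3). Hhip lies at 6.45 to 9.45 CPM in E16.5 mutants, below every other library, while Shh is at 23.2 to 27.4 CPM in E16.5 mutants against 11.1 to 14.7 CPM in E16.5 controls.

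At E14.5, Hhip was lower and Foxl1 was higher in the mutants, and the other 8 genes did not pass the test. Of the 10, 1 was called higher, where 2.95% of all genes tested were, and 1 was called lower, where 4.57% were. In either direction that is 2 of 10, against 7.52% of 16650 genes, too few to set the list apart. The median log2 fold change over the 10 was -0.12, beside 0.01 over all genes tested.

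Shh, the ligand, was at 17.0, 19.7 and 18.7 CPM in E14.5 mutants and at 18.6, 24.4 and 25.0 CPM in E14.5 controls. The groups overlapped, through control 1, and the difference was not called (log2 fold change -0.30, 95% interval -0.55 to -0.04, adjusted p = 0.150 by edgeR). Without E14.5 control 1 it was called lower (adjusted p = 0.0275).

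Hhip encodes a membrane protein that binds and traps Hedgehog ligands. It was at 40.0045, 41.2 and 48.0 CPM in E14.5 mutants and at 61.3, 55.8 and 62.9 CPM in E14.5 controls. All 3 mutant samples lay below all 3 controls. It fell 1.39-fold in the mutants (log2 fold change -0.48, SE 0.08, edgeR adjusted p = 0.00594), a call kept when any one library was left out. When the spread was instead estimated from all 12 samples, the same difference was not called (adjusted p = 0.0627). Bone markers summed to 3324 to 4095 CPM in E14.5 mutants and 8194 to 10510 CPM in E14.5 controls. Their part in the E14.5 fall of Hhip was not tested.

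The other two readouts of the pathway were less clear at this age. Ptch1, the receptor, was at 189, 189.9 and 210.3 CPM in E14.5 mutants and at 194, 201 and 219 CPM in E14.5 controls, with overlapping groups (log2 fold change -0.06, 95% interval -0.21 to 0.09). Gli1, the GLI factor whose RNA depends most directly on the signal, was at 145, 153 and 129.9 CPM in E14.5 mutants and at 181, 164 and 163 CPM in E14.5 controls. Every mutant sample was below every control sample, but the difference of -0.25 on the log2 scale did not pass the test (SE 0.07, adjusted p = 0.0731 by edgeR's quasi-likelihood test). DESeq2 on the same counts called it (adjusted p = 0.0206).

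Among the Fox genes, Foxl1 was at 19.5, 20.1 and 18.6 CPM in E14.5 mutants and at 11.4, 13.9 and 14.8 CPM in E14.5 controls. The groups did not overlap. It rose 1.45-fold (log2 fold change 0.54, SE 0.10, edgeR adjusted p = 0.0123), and the call was lost without E14.5 mutant 1 (adjusted p = 0.0529) or without E14.5 mutant 2 (adjusted p = 0.0544). Foxf1 was at 121, 151 and 138 CPM in E14.5 mutants and at 114, 122 and 120.3 CPM in E14.5 controls. Foxf2 was at 122, 138 and 131 CPM in E14.5 mutants and at 117, 125.6 and 132 CPM in E14.5 controls. Groups overlapped for both genes, with log2 fold changes of 0.21 for Foxf1 (95% interval 0.03 to 0.38, edgeR adjusted p = 0.142) and 0.06 for Foxf2 (95% interval -0.08 to 0.21).

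The co-receptors bring ligand to Ptch1. Gas1, a lipid-anchored surface protein, was at 183, 198 and 207 CPM in E14.5 mutants and at 238, 213 and 248 CPM in E14.5 controls. The groups were separate, but the difference was not called by edgeR (log2 fold change -0.25, adjusted p = 0.0665). It was called by DESeq2 (adjusted p = 0.0180), and by edgeR without E14.5 control 2 (adjusted p = 0.0242) or without E14.5 mutant 3 (adjusted p = 0.0394). Cdon and Boc, paired immunoglobulin-family surface proteins, were not called. Cdon was at 84.5 to 97.5 CPM in E14.5 mutants and 93.6 to 107 CPM in E14.5 controls (log2 fold change -0.18, 95% interval -0.34 to -0.01). Boc was at 95.5 to 98.5 CPM in E14.5 mutants and 96.1 to 103 CPM in E14.5 controls (log2 fold change -0.05, 95% interval -0.17 to 0.07).

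At E16.5 the ligand and its trap moved in opposite directions. Shh rose the most of the 10 genes, Hhip fell the most, Foxf1 rose, and Ptch1, Foxf2 and Cdon fell by smaller amounts. Of the 10, 2 were called higher, where 12.2% of all genes tested were, and 4 were called lower, where 15.7% were. In either direction that is 6 of 10, against 27.9% of 17169 genes. The median log2 fold change was 0.03 over the 10 and 0.01 over all genes tested, so the calls went both ways.

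Shh was at 23.2, 26.4 and 27.4 CPM in E16.5 mutants and at 14.1, 11.1 and 14.7 CPM in E16.5 controls. The lowest mutant sample lay well above the highest control. Shh rose 1.96-fold in the mutants (log2 fold change 0.97, SE 0.12, edgeR adjusted p = 0.000542). Without E16.5 mutant libraries 1 and 3, which leaves 1 mutant library, the log2 fold change was 0.99. The call was kept when any one library was left out. Markers of oral epithelium, the tissue that makes Shh, did not rise with it: of 14 markers 0 were called higher and 4 lower, and their sum was 10349 to 16931 CPM in E16.5 mutants and 16631 to 17798 CPM in E16.5 controls. Per 1000 CPM of those markers, Shh came to 2.24, 1.56 and 1.87 CPM in E16.5 mutants and to 0.835, 0.666 and 0.828 CPM in E16.5 controls, again with no overlap. At E14.5 the same ratio ran the other way, at 7.11, 8.68 and 7.56 CPM in E14.5 mutants and 13.7, 10.8 and 12.6 CPM in E14.5 controls, also with no overlap.

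Hhip was at 6.45, 9.45 and 6.67 CPM in E16.5 mutants and at 44.3, 39.7 and 52.9 CPM in E16.5 controls. Its highest mutant sample was far below its lowest control. Hhip fell 5.99-fold (log2 fold change -2.58, SE 0.16, edgeR adjusted p = 1.52e-05). Mutant library 2, which carried the least of the retina markers, had the highest Hhip of the mutants. Without E16.5 mutant libraries 1 and 3 the log2 fold change was -2.26. Bone markers fell with it: 8 of 10 were called lower and 1 higher, their sum was 807 to 1069 CPM in E16.5 mutants and 2827 to 3516 CPM in E16.5 controls, and none was at 0. Their part in the fall of Hhip was not tested.

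Ptch1 was at 83.4, 92.0 and 93.7 CPM in E16.5 mutants and at 115, 98.4 and 122 CPM in E16.5 controls. The groups did not overlap, though mutant 3 and control 2 were close. Ptch1 fell 1.23-fold (log2 fold change -0.29, SE 0.09, edgeR adjusted p = 0.0377). The call rested on nearly every sample: it was lost in 5 of 6 fits that left out one library, the exception being E16.5 control 2 (adjusted p = 0.0502 to 0.125), and without E16.5 mutant libraries 1 and 3 (adjusted p = 0.198). Gli1, by contrast, was at 61.4, 73.6 and 58.6 CPM in E16.5 mutants and at 69.4, 59.4 and 60.5 CPM in E16.5 controls. Its groups overlapped almost wholly (log2 fold change 0.05, 95% interval -0.17 to 0.28, edgeR adjusted p = 0.724), so the interval covers neither the fall of Hhip nor that of Ptch1 at its fitted size.

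The 3 Fox genes gave 3 outcomes. Foxf1 was at 70.2, 77.4 and 81.5 CPM in E16.5 mutants and at 62.2, 55.2 and 61.1 CPM in E16.5 controls. The groups were separate, and Foxf1 rose 1.30-fold (log2 fold change 0.38, SE 0.08, edgeR adjusted p = 0.00696), with the call kept when any one library was left out. Without E16.5 mutant libraries 1 and 3 the log2 fold change was 0.39. Palate mesenchyme markers, the tissue of Foxf1, were called higher in 4 of 12 cases and lower in 1, with sums of 2621 to 3416 CPM in E16.5 mutants and 1522 to 1754 CPM in E16.5 controls. Most of that gap lay in the marker Prrx1, which averaged 1648 CPM in E16.5 mutants and 441 CPM in E16.5 controls. The part of these markers in the Foxf1 value was not tested. Foxf2, its close relative, was at 66.4, 61.0 and 68.0 CPM in E16.5 mutants and at 74.0, 83.7 and 85.4 CPM in E16.5 controls. These groups were separate too, but in the other direction: Foxf2 fell 1.22-fold (log2 fold change -0.29, SE 0.08, edgeR adjusted p = 0.0267). That call was lost without E16.5 control 2, E16.5 control 3 or E16.5 mutant 2 (adjusted p = 0.0586 to 0.104). Without E16.5 mutant libraries 1 and 3 the log2 fold change was -0.40. Foxl1 was at 4.35, 5.56 and 5.57 CPM in E16.5 mutants and at 4.73, 5.33 and 5.66 CPM in E16.5 controls, which overlapped throughout (95% interval of the log2 fold change -0.34 to 0.34).

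Of the co-receptors, Cdon was at 89.2, 99.2 and 102 CPM in E16.5 mutants and at 112, 115 and 124 CPM in E16.5 controls, with no overlap. It fell 1.19-fold (log2 fold change -0.25, SE 0.07, edgeR adjusted p = 0.0312). That call was lost without any one of the E16.5 controls or E16.5 mutant 1 (adjusted p = 0.0640 to 0.106), and without E16.5 mutant libraries 1 and 3 (adjusted p = 0.194). Boc was at 121, 118 and 117 CPM in E16.5 mutants and at 110.4, 112 and 109 CPM in E16.5 controls. The groups did not overlap, but a log2 difference of 0.13 was not called (edgeR adjusted p = 0.159). With the replicate number as a block, since same-numbered E16.5 samples deviated together, the same difference was called (adjusted p = 0.0494). Gas1 was at 124 to 150.4 CPM in E16.5 mutants and 113 to 134 CPM in E16.5 controls (log2 fold change 0.17, 95% interval -0.04 to 0.38).

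**Figure D2:**
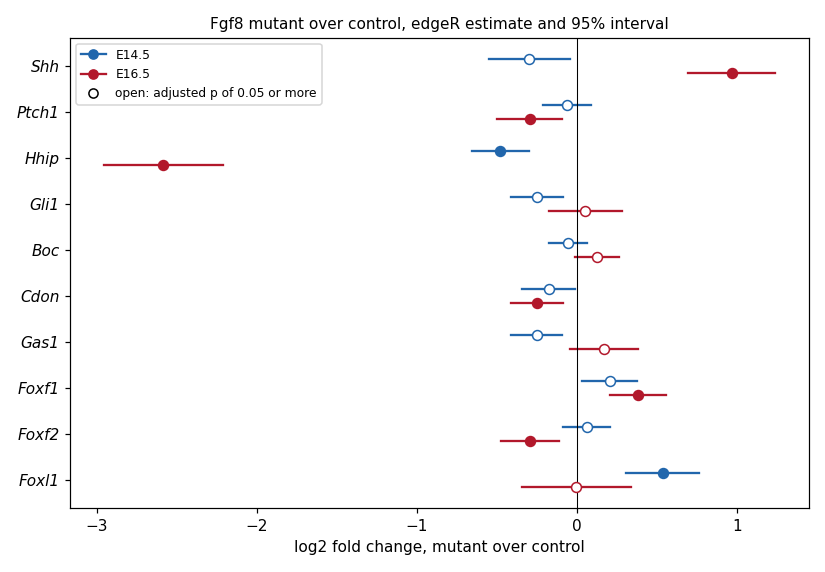
Log2 fold change, Fgf8 mutant over control, of each of the 10 genes (rows) at both ages, with its 95% interval from edgeR. Shh lies at -0.30 at E14.5 and 0.97 at E16.5, and Hhip at -0.48 and -2.58. The points of Ptch1, Gli1, Foxf1, Foxf2, Boc, Cdon and Gas1 stay within 0.4 of 0 at both ages.

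Sequence upstream of the start site is shown for the 4 genes called lower in E16.5 mutants, since these moved in the same direction. RefSeq promoter entries for GRCm38.p6, a later build than the mm9 of the counts, covered 5 of the 10 genes (Hhip, Ptch1, Foxf2, Cdon and Gas1). The 250 bases before the start are written from 5′ to 3′ on the gene's strand, and capitals mark the letters CCACCC, or GGGTGG where they lie on the other strand, the core of the site that GLI proteins bind. The intervals are chr8:80058009-80058258 on the minus strand for Hhip, chr13:63565736-63565985 on the minus strand for Ptch1, chr13:31625566-31625815 on the plus strand for Foxf2 and chr9:35451826-35452075 on the plus strand for Cdon.
Hhip: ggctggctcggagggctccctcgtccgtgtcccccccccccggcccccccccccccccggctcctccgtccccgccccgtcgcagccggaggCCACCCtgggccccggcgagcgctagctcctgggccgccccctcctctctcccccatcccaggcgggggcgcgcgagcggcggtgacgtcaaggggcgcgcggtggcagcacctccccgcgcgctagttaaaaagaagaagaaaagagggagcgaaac
Ptch1: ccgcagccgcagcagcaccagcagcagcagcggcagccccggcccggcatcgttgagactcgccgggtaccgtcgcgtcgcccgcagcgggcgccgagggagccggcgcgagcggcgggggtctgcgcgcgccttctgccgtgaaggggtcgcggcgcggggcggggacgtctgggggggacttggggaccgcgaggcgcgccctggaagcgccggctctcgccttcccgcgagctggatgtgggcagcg
Foxf2: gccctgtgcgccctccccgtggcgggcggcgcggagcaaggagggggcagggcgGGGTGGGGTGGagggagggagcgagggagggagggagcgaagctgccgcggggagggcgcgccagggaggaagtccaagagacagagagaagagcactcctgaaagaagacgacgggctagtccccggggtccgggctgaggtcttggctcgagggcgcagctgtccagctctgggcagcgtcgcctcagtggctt
Cdon: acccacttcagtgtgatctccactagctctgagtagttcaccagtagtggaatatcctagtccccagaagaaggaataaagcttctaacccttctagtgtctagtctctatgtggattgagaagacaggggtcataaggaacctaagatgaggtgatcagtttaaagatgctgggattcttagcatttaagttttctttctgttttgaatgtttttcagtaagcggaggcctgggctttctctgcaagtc
Both strands were searched. The core was present once upstream of Hhip and as 2 overlapping matches on the other strand upstream of Foxf2, so in 2 of 5 genes with an entry, and in 28.1% of 32851 promoter windows of this length. The longer site GACCACCCA was in 0 of 5 and in 0.225% of all windows. A match describes these letters only, and the absence of one says nothing of GLI binding elsewhere.

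Whether the genotype effect itself differed between the ages was tested as an interaction over all 12 samples. Of the 10 genes, 2 had a higher effect at E16.5 than at E14.5, where 9.97% of all genes tested did, and 3 had a lower one, where 12.4% did. In either direction that is 5 of 10, against 22.3% of 17550 genes. The Shh effect was higher at E16.5 by 1.24 on the log2 scale (SE 0.18, edgeR adjusted p = 0.000472). The difference for Hhip was -2.13 (SE 0.20, edgeR adjusted p = 2.06e-05). Both were kept in all 12 fits that left out one library, and without E16.5 mutant libraries 1 and 3 they were 1.31 for Shh and -1.77 for Hhip.

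The other called differences were smaller and less steady. The Foxl1 effect was lower at E16.5 (-0.56, edgeR adjusted p = 0.0351), as was that of Foxf2 (-0.38, adjusted p = 0.0213), and that of Gas1 was higher (0.40, adjusted p = 0.0371). The Foxf2 call was lost in 7 of 12 fits that left out one library, those without E14.5 control 1 or 2, E14.5 mutant 2 or 3, E16.5 control 2 or 3, or E16.5 mutant 2 (adjusted p = 0.0513 to 0.0742). The Foxl1 call was lost in 8, those without any E14.5 mutant, E14.5 control 1 or 2, E16.5 control 2 or 3, or E16.5 mutant 1 (adjusted p = 0.0546 to 0.0901). The Gas1 call was lost in 6, those without E14.5 control 1 or 3, E14.5 mutant 1, E16.5 control 1 or 2, or E16.5 mutant 3 (adjusted p = 0.0507 to 0.0916). Without E16.5 mutant libraries 1 and 3, which leaves 1 mutant library at that age, Foxl1 and Gas1 were not called. The effects on Ptch1, Gli1, Foxf1, Boc and Cdon were not called different between ages. For Gli1 the difference was 0.28 (95% interval -0.01 to 0.57), and without E16.5 mutant libraries 1 and 3 it was 0.49.

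Age itself moved most of these genes down in both genotypes, and Shh is where the genotypes parted. In mutants, 2 of 10 were higher at E16.5 than at E14.5 and 7 were lower, where 27.2% and 24.4% of all genes tested were. In either direction that is 9 of 10, against 51.6% of 17550 genes. In controls, 2 were higher and 8 lower, where 34.3% and 32.1% of all genes were, so that all 10 were called against 66.4% of all genes. The median log2 fold change over the 10 genes was -0.92 in mutants and -0.82 in controls, beside 0.00 for all genes tested in both.

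In mutants, Shh was at 25.6 ± 2.19 CPM at E16.5 and 18.5 ± 1.37 CPM at E14.5 (SD, n = 3 each), a rise of 0.47 on the log2 scale (SE 0.13, edgeR adjusted p = 0.00816). In controls it was at 13.3 ± 1.95 CPM at E16.5 and 22.7 ± 3.52 CPM at E14.5, and fell by 0.77 (SE 0.13, edgeR adjusted p = 0.000164). No E16.5 sample overlapped an E14.5 sample of its own genotype. In mutant replicates 1 and 2 with their controls alone, the rise was not called (adjusted p = 0.0598). The oral epithelium marker sum was far higher at E16.5 in both genotypes, at 10349 to 16931 CPM in E16.5 mutants against 2269 to 2476 CPM in E14.5 mutants, and at 16631 to 17798 CPM in E16.5 controls against 1364 to 2267 CPM in E14.5 controls. Per 1000 CPM of these markers, Shh averaged 1.89 ± 0.341 CPM at E16.5 and 7.78 ± 0.808 CPM at E14.5 in mutants, and 0.776 ± 0.0953 CPM at E16.5 and 12.3 ± 1.47 CPM at E14.5 in controls, so this ratio was lower at E16.5 in both genotypes. The part of the markers in the age change of Shh was not tested.

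Hhip fell with age in both genotypes, and further in the mutants. In mutants it was at 7.52 ± 1.67 CPM at E16.5 and 43.1 ± 4.35 CPM at E14.5, and fell by 2.52 on the log2 scale (SE 0.15, edgeR adjusted p = 1.71e-08). In controls it was at 45.6 ± 6.72 CPM at E16.5 and 60.0 ± 3.70 CPM at E14.5, and fell by 0.39 (SE 0.14, edgeR adjusted p = 0.0210). The control fall was lost without control 1 of either age, E16.5 control 2 or E14.5 control 3 (adjusted p = 0.0535 to 0.0934).

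Ptch1 and Gli1 fell with age in both genotypes. Ptch1 was at 89.7 ± 5.51 CPM at E16.5 and 196 ± 12.04 CPM at E14.5 in mutants (log2 fold change -1.13), and at 112 ± 12.0003 CPM at E16.5 and 205 ± 12.5 CPM at E14.5 in controls (-0.87). Gli1 was at 64.5 ± 8.01 CPM at E16.5 and 143 ± 11.9 CPM at E14.5 in mutants (-1.14), and at 63.1 ± 5.49 CPM at E16.5 and 169 ± 9.70 CPM at E14.5 in controls (-1.42). The edgeR adjusted p was 9.71e-07 or smaller in each of these 4 comparisons. In the mutants, Shh RNA was higher at the later age while Ptch1, Gli1 and Hhip RNA were all lower.

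The Fox genes fell with age as well. Foxl1 fell the most of the 3, at 5.16 ± 0.702 CPM at E16.5 and 19.4 ± 0.788 CPM at E14.5 in mutants (log2 fold change -1.91) and at 5.24 ± 0.474 CPM at E16.5 and 13.4 ± 1.76 CPM at E14.5 in controls (-1.35). Foxf1 fell by 0.84 in mutants and by 0.998 in controls, and Foxf2 fell by 1.0002 in mutants and by 0.62 in controls, on the log2 scale. For all 3 genes the edgeR adjusted p was 7.07e-06 or smaller in both genotypes. The age change of Foxf1 was not called different between the genotypes (interaction 0.15, adjusted p = 0.398), and that of Foxf2 was (-0.38, adjusted p = 0.0213).

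The co-receptors divided. Gas1 fell by 0.52 in mutants (edgeR adjusted p = 0.000302) and by 0.91 in controls (adjusted p = 1.01e-06). Boc was higher at E16.5 in mutants (0.29, edgeR adjusted p = 0.000265) and in controls (0.13, adjusted p = 0.0272), and Cdon was higher in controls (0.19, adjusted p = 0.0431) but not called in mutants (0.09, adjusted p = 0.333). The control calls for Boc and Cdon were slight. That of Boc was lost without E14.5 control 2 or any E16.5 control (adjusted p = 0.0573 to 0.120), and that of Cdon without control 2 or 3 of either age (adjusted p = 0.0527 to 0.212). Both were also lost with upper-quartile factors (adjusted p = 0.280 for Boc and 0.142 for Cdon) and with no filter on low counts (0.107 and 0.0840).

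**Figure D3:**
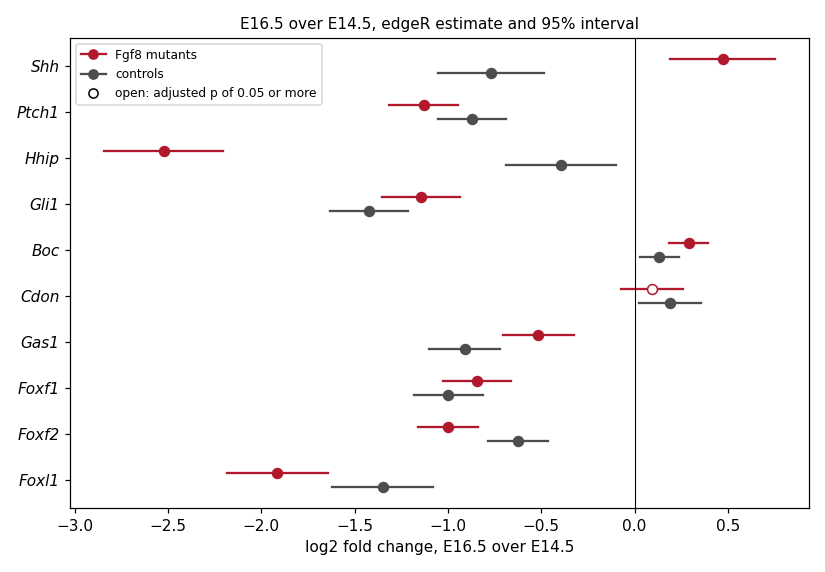
Log2 fold change, E16.5 over E14.5, of each of the 10 genes (rows) within mutants and within controls, with its 95% interval from edgeR. Shh is at 0.47 in mutants and -0.77 in controls, on opposite sides of 0, and Hhip is at -2.52 in mutants and -0.39 in controls.

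Levels can be compared between genes once divided by exon length, here as CPM per kb with union exon lengths from the GENCODE annotation of GRCm38. In E16.5 mutants the order was Gas1 (46.3), Foxf1 (31.6), Foxf2 (27.6), Boc (26.7), Gli1 (12.9), Cdon (12.5), Shh (9.0007), Ptch1 (6.32), Foxl1 (1.91) and Hhip (0.829 CPM per kb). In E16.5 controls it was Gas1 (41.8), Foxf2 (34.3), Boc (24.8), Foxf1 (24.6), Cdon (15.1), Gli1 (12.6), Ptch1 (7.88), Hhip (5.03), Shh (4.67) and Foxl1 (1.94 CPM per kb). On these lengths Shh stood above Ptch1 in every E16.5 mutant sample and below it in every E16.5 control, and Hhip went below Foxl1 in every E16.5 mutant sample. The union length joins the exons of all transcripts, 14185 bases for Ptch1 and 2847 for Shh. The lengths that apply to the counts are not known, and a shorter one for Ptch1 would raise its place. Neighbours with overlapping samples were Foxf2 with Boc and Gli1 with Cdon in mutants, and Boc with Foxf1 and Hhip with Shh in controls.

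Among the ligands, Shh was the most abundant per kb at E16.5. Ihh, the ligand of growing cartilage and bone, averaged 0.607 ± 0.134 CPM per kb in E16.5 mutants and 0.964 ± 0.0940 in E16.5 controls. Dhh, the ligand of nerve sheaths, endothelium and gonad, averaged 0.504 ± 0.0982 CPM per kb in E16.5 mutants and 0.199 ± 0.0169 in E16.5 controls. Smo, which carries the signal across the membrane, averaged 44.3 ± 2.65 CPM per kb in E16.5 mutants and 41.6 ± 0.717 in E16.5 controls.

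The rest of the pathway was followed through 25 further genes, of which 24 were tested. Disp1 was listed at 0 in all 12 libraries, which does not show that the gene is silent, since the counting annotation is not given in the sources used here. At E14.5, 1 was called higher and 1 lower, where 2.95% and 4.57% of all genes tested were, with a median log2 fold change of -0.13. At E16.5, 7 were called higher and 5 lower, where 12.2% and 15.7% of all genes were, with a median of 0.11, beside 0.01 over all genes tested at either age. With the replicate block, 8 were called higher and 4 lower at E16.5, in a fit whose share over all genes is not given here. Smo, Gli2, Gli3 and Sufu, the shared core of the pathway, were not called at either age.

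Ihh was the one ligand called lower at both ages. It was at 3.55, 4.37 and 4.09 CPM in E14.5 mutants and at 10.8, 6.59 and 8.94 CPM in E14.5 controls, with no overlap, and fell by 1.13 on the log2 scale (SE 0.18, edgeR adjusted p = 0.00395), a call lost in replicates 1 and 2 alone (adjusted p = 0.0529). At E16.5 it was at 1.52, 2.31 and 1.73 CPM in mutants and at 3.06, 2.61 and 3.15 CPM in controls, and fell by 0.65 (adjusted p = 0.0487). The E16.5 call was lost in 5 of 6 fits that left out one library (all but E16.5 mutant 2, adjusted p = 0.0863 to 0.137), with the replicate block (0.0542), in replicates 1 and 2 alone (0.258), without E16.5 mutant libraries 1 and 3 (0.402), and with DESeq2 size factors, upper-quartile factors or no filter (0.0501 to 0.0550). Bone markers were low in mutants at E14.5 too, with 9 of 10 called lower and sums of 3324 to 4095 CPM in E14.5 mutants against 8194 to 10510 CPM in E14.5 controls, and their part in the Ihh values was not tested.

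Dhh went the other way at E16.5. It was at 2.45, 1.72 and 2.49 CPM in E16.5 mutants and at 0.848, 0.957 and 0.815 CPM in E16.5 controls, and rose by 1.37 on the log2 scale (SE 0.24, edgeR adjusted p = 0.00343). All mutant samples were above all controls, and without E16.5 mutant libraries 1 and 3 the rise was 0.98 and not called (adjusted p = 0.0749), nor was it in replicates 1 and 2 alone (0.0666). Endothelium markers were higher in those mutants in 8 of 8 cases, with sums of 332 to 427 CPM in E16.5 mutants and 236 to 254 CPM in E16.5 controls, none at 0. Neuron markers were higher in 6 of 8 cases and, like Dhh, lowest among the E16.5 mutants in library 2. The part of either list in the Dhh values was not tested. At E14.5 Dhh was at 1.11 to 1.46 CPM in mutants and 1.26 to 2.10 CPM in controls, not called.

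Scube1 and Scube3, secreted proteins of a family that helps free Hedgehog ligands from the cells that make them, both rose at E16.5. Scube1 was at 39.7, 33.5 and 38.3 CPM in E16.5 mutants and at 18.9, 19.3 and 20.5 CPM in E16.5 controls (log2 fold change 0.95, SE 0.09, edgeR adjusted p = 0.000123). Scube3 was at 39.0, 39.5 and 44.5 CPM in E16.5 mutants and at 21.9, 19.4 and 24.2 CPM in E16.5 controls (0.93, SE 0.10, adjusted p = 0.000212). Neither pair of groups overlapped, and without E16.5 mutant libraries 1 and 3 the rises were 0.78 for Scube1 and 0.86 for Scube3. At E14.5 neither gene was called, and the genotype effect was higher at E16.5 for both, by 1.10 for Scube1 (edgeR adjusted p = 0.000251) and by 0.67 for Scube3 (adjusted p = 0.00437).

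Of the other pathway genes named here, Evc rose and Efcab7 and Stk36 fell. Evc, part of the complex that relays the signal from Smo at the ciliary base, rose, at 56.9, 55.9 and 52.5 CPM in E16.5 mutants and 42.7, 38.1 and 42.1 CPM in E16.5 controls (log2 fold change 0.45, edgeR adjusted p = 0.00243). Efcab7, which anchors that complex, fell, at 16.9, 15.98 and 14.6 CPM in E16.5 mutants and 25.0, 27.8 and 23.9 CPM in E16.5 controls (-0.67, adjusted p = 0.00128). Stk36, known in the mouse for the assembly of motile cilia, was at 23.2, 25.6 and 23.7 CPM in E16.5 mutants and 50.4, 57.2 and 53.5 CPM in E16.5 controls, and fell by 1.13 (SE 0.07, adjusted p = 1.75e-05). Markers of nasal and ciliated epithelium were called lower in 7 of 10 cases, with sums of 574 to 1025 CPM in E16.5 mutants and 1283 to 1373 CPM in E16.5 controls and none at 0, and their part in the Stk36 and Efcab7 values was not tested. Without E16.5 mutant libraries 1 and 3 the log2 fold changes were 0.46 for Evc, -0.67 for Efcab7 and -1.06 for Stk36.

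**Figure D4:**
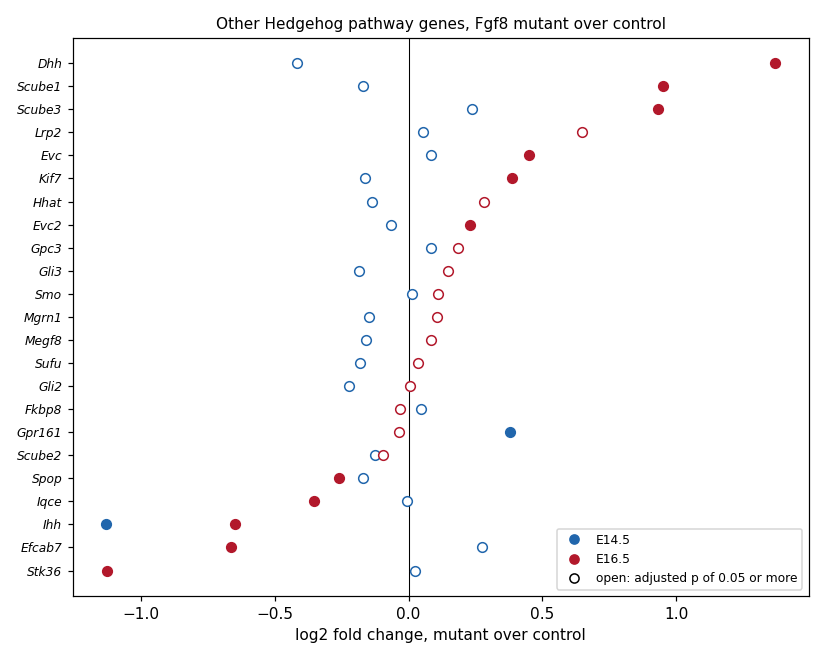
Log2 fold change, Fgf8 mutant over control, of the further Hedgehog pathway genes reported here (rows) at both ages, as edgeR estimates. Filled points passed the test and open points did not. At E16.5 Dhh (1.37), Scube1 (0.95) and Scube3 (0.93) lie farthest above 0 and Stk36 (-1.13) farthest below.

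Shh in the palate is part of a loop with mesenchymal growth factors, and 12 genes of that loop were followed. At E14.5, 2 were called higher and 3 lower, where 2.95% and 4.57% of all genes tested were, and at E16.5, 4 were called higher and 2 lower, where 12.2% and 15.7% were. With the replicate block the E16.5 counts were 5 and 4, from a fit whose share over all genes is not given here. The median log2 fold change was -0.11 at E14.5 and 0.20 at E16.5.

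Fgf18, the growth factor that Foxf1 and Foxf2 hold back in the mouse palate, was called lower at both ages. It was at 5.57, 5.31 and 5.202 CPM in E14.5 mutants and at 8.57, 8.03 and 8.38 CPM in E14.5 controls (log2 fold change -0.63, SE 0.10, edgeR adjusted p = 0.00405). At E16.5 it was at 0.343, 1.23 and 0.857 CPM in mutants and at 5.19, 5.70 and 4.84 CPM in controls (-2.70, SE 0.39, adjusted p = 0.00125). The E14.5 call was lost when the spread was estimated from all 12 samples (adjusted p = 0.194), and without E16.5 mutant libraries 1 and 3 the E16.5 change was -2.09. No mutant sample reached a control at either age, and the effect was larger at E16.5 (interaction -2.10, edgeR adjusted p = 0.00224). Its direction at E16.5 was that of Hhip and Foxf2 and opposite to that of Shh and Foxf1. The part of Foxf1 or Foxf2 in the Fgf18 values was not tested.

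Dlx5, a homeobox factor that maintains Fgf7 in palate mesenchyme and also drives bone formation, showed the same pattern. It was at 23.5, 28.1 and 29.1 CPM in E14.5 mutants and at 48.2, 42.006 and 58.0 CPM in E14.5 controls, and at 1.76, 2.57 and 2.42 CPM in E16.5 mutants and 12.3, 12.6 and 12.2 CPM in E16.5 controls. It fell by 0.88 at E14.5 (edgeR adjusted p = 0.00172) and by 2.45 at E16.5 (adjusted p = 1.53e-05) on the log2 scale. Without E16.5 mutant libraries 1 and 3 the E16.5 fall was 2.26. The bone marker sums given beside Hhip and Ihh were lower in mutants at both ages. Their part in the Fgf18 and Dlx5 values was not tested.

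Msx1 and Bmp2, the mesenchymal homeobox factor and growth factor that act with Shh in the anterior palate, passed the test at E16.5 and not at E14.5. Msx1 was at 44.7, 79.7 and 79.5 CPM in E16.5 mutants and at 19.2, 11.5 and 17.0 CPM in E16.5 controls, and rose by 2.12 on the log2 scale (SE 0.25, edgeR adjusted p = 0.000409). Bmp2 was at 80.5, 60.4 and 80.6 CPM in E16.5 mutants and at 36.8, 39.0 and 47.3 CPM in E16.5 controls, and rose by 0.87 (adjusted p = 0.00201). The rises without E16.5 mutant libraries 1 and 3 were 2.33 for Msx1 and 0.57 for Bmp2. Groups were separate for both, and the genotype effect was higher at E16.5 for Msx1 (2.03, edgeR adjusted p = 0.000506) and for Bmp2 (0.85, adjusted p = 0.00376).

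The palate mesenchyme marker sums given beside Foxf1, with their large share of Prrx1, stand beside the E16.5 values of Msx1, Bmp2, Fgfr1 and Pax9 too. The part of these markers was not tested. Fgfr1, a receptor for FGFs, was at 380.2 to 440.1 CPM in E16.5 mutants and 268 to 281 CPM in E16.5 controls. It rose by 0.59 (edgeR adjusted p = 0.00103), or by 0.47 without E16.5 mutant libraries 1 and 3. Pax9, a paired-box factor needed for palate growth, rose at both ages, by 0.49 at E14.5 (adjusted p = 0.0140) and 0.47 at E16.5 (adjusted p = 0.0117). The Pax9 calls were lost without E14.5 mutant 2 (adjusted p = 0.05004), and at E16.5 without control 1 or control 2 (0.0545 to 0.0550) and without mutant libraries 1 and 3 (0.192). Bmp4 was at 33.0 to 39.5 CPM in E14.5 mutants and 44.3 to 49.0 CPM in E14.5 controls and fell by 0.40 (edgeR adjusted p = 0.0154), a call lost without E14.5 mutant 1 (0.0780). Osr2, a zinc-finger factor of palate mesenchyme, was at 118 to 128 CPM in E14.5 mutants and 87.3 to 108 CPM in E14.5 controls and rose by 0.31 (adjusted p = 0.0376), a call lost in 5 of 6 fits that left out one library (all but E14.5 control 2, 0.0563 to 0.128).

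Of 13 further genes known to respond to Hedgehog signals, Nkx2-3 was too low to test. Among the other 12, 1 was called higher and 1 lower at E14.5, and 3 were called higher and 0 lower at E16.5. The share over all genes tested was 7.52% at E14.5, where the calls are too few to set the list apart. The E16.5 total is near the share over all genes tested, 27.9%. The E16.5 counts were 4 and 1 with the replicate block, a fit to which that share does not apply. Their median log2 fold change was 0.00 at E14.5 and 0.18 at E16.5. Mycn, a driver of cell growth, was at 14.9987, 6.73 and 11.0 CPM in E16.5 mutants and at 3.98, 2.37 and 3.42 CPM in E16.5 controls, and rose by 1.78 on the log2 scale (SE 0.31, edgeR adjusted p = 0.00337). The rise without E16.5 mutant libraries 1 and 3 was 1.06, and in replicates 1 and 2 alone the rise was not called (adjusted p = 0.0649). Ccnd1, a cyclin of the G1 phase, was at 144, 135 and 145 CPM in E14.5 mutants and at 215, 175 and 201 CPM in E14.5 controls, and fell by 0.48 (SE 0.08, edgeR adjusted p = 0.00544), a call lost when the spread was estimated from all 12 samples (adjusted p = 0.480). At E16.5 Ccnd1 was at 292, 66.8 and 191 CPM in mutants and at 81.0, 78.1 and 89.4 CPM in controls, not called (adjusted p = 0.0702). Mutant libraries 1 and 3, which carried the retina markers, were the high ones for Ccnd1, and library 2 lay below all 3 controls. Mycn was also lowest in mutant library 2, but there it stayed above the controls.

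The remaining calls among these were small. Bcl2, a survival factor, rose by 0.47 at E16.5 (edgeR adjusted p = 0.0269), lost without E16.5 control 1, control 2, mutant 1 or mutant 3 (0.0712 to 0.112) and without mutant libraries 1 and 3 (0.370). Foxm1, a forkhead factor of dividing cells, rose by 0.26 at E16.5 (adjusted p = 0.0151), lost without E16.5 control 1, control 2 or mutant 1 (0.0518 to 0.0727) and without mutant libraries 1 and 3 (0.224). Foxd2, a forkhead factor of embryonic mesenchyme, rose by 0.47 at E14.5 (adjusted p = 0.0493), lost in 5 of 6 fits that left out one library (all but E14.5 control 3, 0.0571 to 0.144), with DESeq2 size factors (0.0518), at the stricter filter (0.0543) and with the spread from all 12 samples (0.142). In replicates 1 and 2 alone the calls of Bmp4, Osr2 and Foxd2 at E14.5 and of Pax9, Bcl2 and Foxm1 at E16.5 were lost too (adjusted p = 0.0509 to 0.123).

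Genes with the most similar pattern over the 12 samples were found for the 7 genes called in either genotype comparison, as the root mean square difference of log2 CPM after each gene was centred on its own mean, among 12846 genes. Nearest to Shh were Cables1 (0.158), Chst7 (0.182) and Filip1l (0.215). Nearest to Hhip were Gnas (0.297), Lox (0.343) and Igf1 (0.361), farther than the nearest genes of the other 6. Gnas, which encodes a stimulatory G protein subunit, averaged 274 ± 47.7 CPM in E16.5 mutants and 1207 ± 108 CPM in E16.5 controls. Nearest to Ptch1 were Fam126a (0.104), Aff3 (0.106) and Mfap4 (0.108), and nearest to Foxl1 were Adcy8 (0.229), Prrt4 (0.240) and Thbs1 (0.253). Nearest to Foxf1 were Cbx2 (0.0902), Marcksl1 (0.102) and Mcm10 (0.105), and nearest to Foxf2 were Doc2b (0.0793), Rttn (0.106) and Mgat3 (0.118). Nearest to Cdon were Clec16a (0.0455), Uso1 (0.0492) and Dnajc3 (0.0528).

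The authors' deposited table for E14.5 called 4 of the 10 genes at an adjusted p under 0.05, namely Gli1, Hhip, Foxl1 and Gas1. The authors' deposited table for E16.5 called 6, namely Shh, Ptch1, Hhip, Foxf1, Foxf2 and Cdon, the same 6 as called here. The share of all genes called by the authors was not counted, so neither count sets the 10 genes apart. In the authors' deposited table the log2 fold change of Hhip was -0.45 at E14.5 and -2.47 at E16.5, and that of Shh was -0.26 at E14.5 (not called, adjusted p = 0.0763) and 0.94 at E16.5.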

How the data were processed

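RNA was extracted from dissected anterior palates of 3 mutant and 3 control samples at each age and sequenced on Illumina libraries, per the labels' protocols. HISAT2 alignment to mm9 and featureCounts gave the raw gene counts that the authors deposited, per the submitters' processing notes. Annotation, strand setting and versions are not given in the sources used here. The authors also deposited DESeq2 tables with a log2 fold change and an adjusted p-value per gene, and series-wide tables whose 24 per-sample columns were not used. Genes are keyed by symbol. A single gene of the further pathway list enters the counts and is not reported here by name.

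edgeR 4.0.16 in R 4.3.3 was used on the counts (TMM factors, filterByExpr, quasi-likelihood test), after being tested on simulated data. Genotypes were compared within an age on its 6 samples, and ages and the interaction in 1 fit of all 12 with 4 group means. The threshold was 0.05 on the Benjamini-Hochberg adjusted p. The SE is that of the edgeR log2 fold change. The 10 genes, the other lists and the markers were chosen with earlier results of these data known. Of each other list, up to 8 called genes with the largest log2 fold change are named, and for each called member the 3 nearest patterns among genes with a mean log2 CPM of at least 1 (prior count 2).

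Alternatives were DESeq2 1.42.0 size factors and test, upper-quartile factors, limma-voom (limma 3.58.1), no filter, at least 5 CPM in 3 samples, a replicate block, each library left out, replicates 1 and 2 alone, and all 12 samples. Leaving out both E16.5 mutant libraries 1 and 3 was added after the data had been seen, with the remaining mutant library assumed to vary like the controls. Deviations from the group mean of same-numbered E16.5 samples correlated at 0.105, 0.161 and 0.222 over 17550 genes, above 0.1 in each pair. On that ground the numbers were taken to pair those samples, a pairing read from the data and not stated in the labels. The main tests did not use it. Same-numbered controls of different ages correlated at 0.0618, 0.0981 and 0.158, each best with its own number, so what the number stands for is not known. In all 4 groups, replicate 3 was registered apart from replicates 1 and 2. Its same-numbered correlation was the highest in both of these sets. Whether replicate 3 was a separate batch is not stated, so a batch and a pairing cannot be told apart.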

Additional observations from a re-analysis of the deposited data

Results flagged for a closer look

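The difference between the genotype effects at E16.5 and at E14.5 passed edgeR's interaction test for 5 of the 10 genes. It was 1.24 on the log2 scale for Shh, higher in mutants than in controls in 3 of 3 E16.5 samples. It was -2.13 for Hhip, whose mutant samples lay below the controls at both ages. It was -0.38 for Foxf2, -0.56 for Foxl1 and 0.40 for Gas1, and those 3 calls each depended on single libraries.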

How the results depend on the processing

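Shh, Hhip and Foxf1 at E16.5 kept their direction under every alternative run, and Shh and Hhip their call. Foxf1 missed it in replicates 1 and 2 alone (adjusted p = 0.0548). In that setting Ptch1, Foxf2 and Cdon were lost too, so 2 of the 10 members and 2286 of all genes tested were called at E16.5, and 2 and 1961 in the interaction. Without E16.5 mutant libraries 1 and 3, 2496 genes were called at E16.5 and 2017 in the interaction. At E14.5, DESeq2 called 4 of the 10 and 2120 genes. The fit of all 12 samples called 1 of the 10 there, and its share over all genes is not given here.

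Same-numbered E14.5 samples correlated at 0.0193, 0.0445 and 0.160, and replicates 2 and 3 but not 1 correlated best with their own. Whether the E14.5 numbers pair samples cannot be told from these values. A replicate block raised the E14.5 calls to 7 of the 10 members and 3155 of all genes tested, and the interaction to 6055 genes. At E16.5, where the numbers were taken to pair the samples, the block changed no call of the 10 genes other than that of Boc.

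Leaving out one library gave 526 to 1412 of all genes tested and 1 to 3 of the 10 at E14.5, with 526 without mutant 1, 630 without control 3, 666 without control 1 and 673 without mutant 2. It gave 2781 to 5486 genes and 3 to 5 of the 10 at E16.5, with 2781 without control 2 and 3079 without control 1. It gave 2942 to 4723 genes and 2 to 4 of the 10 in the interaction. Foxl1 at E16.5, never called, changed sign with DESeq2 size factors (0.0028), upper-quartile factors (0.024), the DESeq2 test (0.0011), no filter (0.00069), without mutant libraries 1 and 3 (0.093) and when one library was left out (-0.068 to 0.10). Gli1 at E16.5 ran from -0.048 without mutant 2 to 0.13 when one library was left out, and reached 0.23 over all alternatives. The causes of these changes were not tested. The lowest count of any of the 10 genes in a library was 396, for Foxl1 in an E16.5 control.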
